A study of Homo sapiens with 6 samples.

Results

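The Wnt genes described here were the rows of the count table whose identifier maps to a Wnt ligand, a Frizzled receptor, a Dickkopf (DKK1 to DKK4), secreted Frizzled-related (SFRP1 to SFRP5) or Dishevelled (DVL1 to DVL3) gene, or to a further gene of the pathway, from the co-receptors LRP5 and LRP6 to the nuclear factors TCF7, TCF7L1, TCF7L2 and LEF1. This gave 58 of the 27745 genes in the table: 19 ligands, 13 receptors, 8 secreted antagonists, 4 R-spondin receptors and ubiquitin ligases, 7 cytoplasmic signalling genes, and 7 feedback and nuclear factors. The RNA came from MDA-MB-231, a triple-negative breast cancer cell line, in which the study asked what changes when the long non-coding RNA MIR100HG is knocked down. Cells were infected with lentivirus from the pLKO.1 vector and collected after 72 h. The control group carried sh-TRC, and the other 2 groups carried sh-MIR100HG-1 or sh-MIR100HG-2, an shRNA against a different stretch of MIR100HG. There were 2 libraries per group, 6 in all, and no uninfected cells, so the lentiviral infection is common to all groups. All libraries came from 1 cell line.

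Wnt ligands are secreted lipid-modified proteins that bind a Frizzled receptor together with LRP5 or LRP6. Without a ligand, a cytoplasmic complex built on AXIN1 and APC lets the kinase GSK3B mark β-catenin (CTNNB1) for degradation. With one, Dishevelled proteins are recruited to the receptor, β-catenin accumulates, and it acts with TCF and LEF factors on target genes, among them feedback inhibitors such as AXIN2. Other ligands, WNT5A being the usual example, signal largely without β-catenin. DKK and SFRP proteins block the ligand or its co-receptor outside the cell, while RNF43 and ZNRF3 remove Frizzled from the surface unless LGR4 or LGR5 binds R-spondin. In breast tissue the pathway is known for its part in stem cell maintenance and for its activity in basal-like tumours.

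The sequences that the shRNAs match are shown because every comparison rests on them. Each matched 1 place in GRCh37, on the minus strand inside the same exon block of MIR100HG, from 121959811 to 121962448 on chromosome 11. They are written 5′ to 3′ as in the transcript, with T for U.
sh-MIR100HG-1, chr11:121962132-121962152: ttcctctgtttgtacttaaat
sh-MIR100HG-2, chr11:121961961-121961981: gagagtgacctacagaataaa

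MIR100HG was lower in all 4 knockdown libraries. Its level was 41.9 and 58.5 CPM (library-size scaled counts) in the sh-TRC libraries, 15.2 and 13.2 CPM with sh-MIR100HG-1, and 16.6 and 10.4 CPM with sh-MIR100HG-2. The log2 fold change (log2FC) of the mean of both shRNAs against sh-TRC was -1.86 (SE 0.25, unadjusted p 5.6e-05, adjusted p 0.381 in edgeR's quasi-likelihood test). Libraries held 43804736 to 64588388 counts. Of the markers of MDA-MB-231 and other mesenchymal-like triple-negative cells, 15 of 15 were tested. Their levels also differed widely, with VIM at 1607 to 2095 CPM and SPARC at 1.96 to 6.41 CPM. Of the luminal markers, 12 of 13 were tested as well, so being tested did not separate these lists. Levels of luminal markers differed widely. KRT8 was at 710 to 1177 CPM and ERBB2 at 71.6 to 116 CPM, while ESR1 was at 0.120 to 2.79 CPM and PGR had 1 count in all libraries. The summed level of 12 markers of other cell types was 28.5 and 29.5 CPM in the sh-TRC libraries and 55.1 to 88.9 CPM in the knockdown libraries. COL1A1 made up most of it, at 20.2 and 17.2 CPM in sh-TRC and 45.5 to 78.0 CPM after knockdown. The 8 of these markers that were tested had a median log2FC of -0.13, so the list did not rise as a whole. The part of these markers in the Wnt results was not tested, and in bulk RNA fewer cells of a type and less RNA per cell cannot be told apart. The second sh-TRC library and the first sh-MIR100HG-1 library stood apart: 76 genes had at least 20 counts in both and at most 2 in each of the other 4 libraries, against 0 genes for each of the other 14 pairs of libraries. WNT6 was among these 76 genes. Values without these libraries are given below for some genes, and not for every gene whose estimate they moved.

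Of the 58 Wnt genes, 39 had enough counts to be tested, 16 were below the limit without being at 0, and 3 (WNT8A, SFRP4 and FZD10) had 0 counts in every library. Levels between genes are compared as CPM per kilobase of exon. On that scale DKK1, an inhibitor that binds LRP5 and LRP6, ranked first with a mean of 138 CPM per kilobase, followed by LRP5 at 60.4, CTNNB1 at 50.9 and DVL1 at 45.1. The 7 cytoplasmic signalling genes were all tested and ran from 3.70 (APC) to 50.9 CPM per kilobase. Ligands were lower, with WNT7B at 12.7 and WNT5B at 11.3 CPM per kilobase, WNT9A, WNT10B and WNT3 between 1.86 and 2.63, and the other 14 at 0.433 or less. Each of the 6 roles had tested genes, and the secreted inhibitor DKK1 stood above them all.

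**Figure D1:**
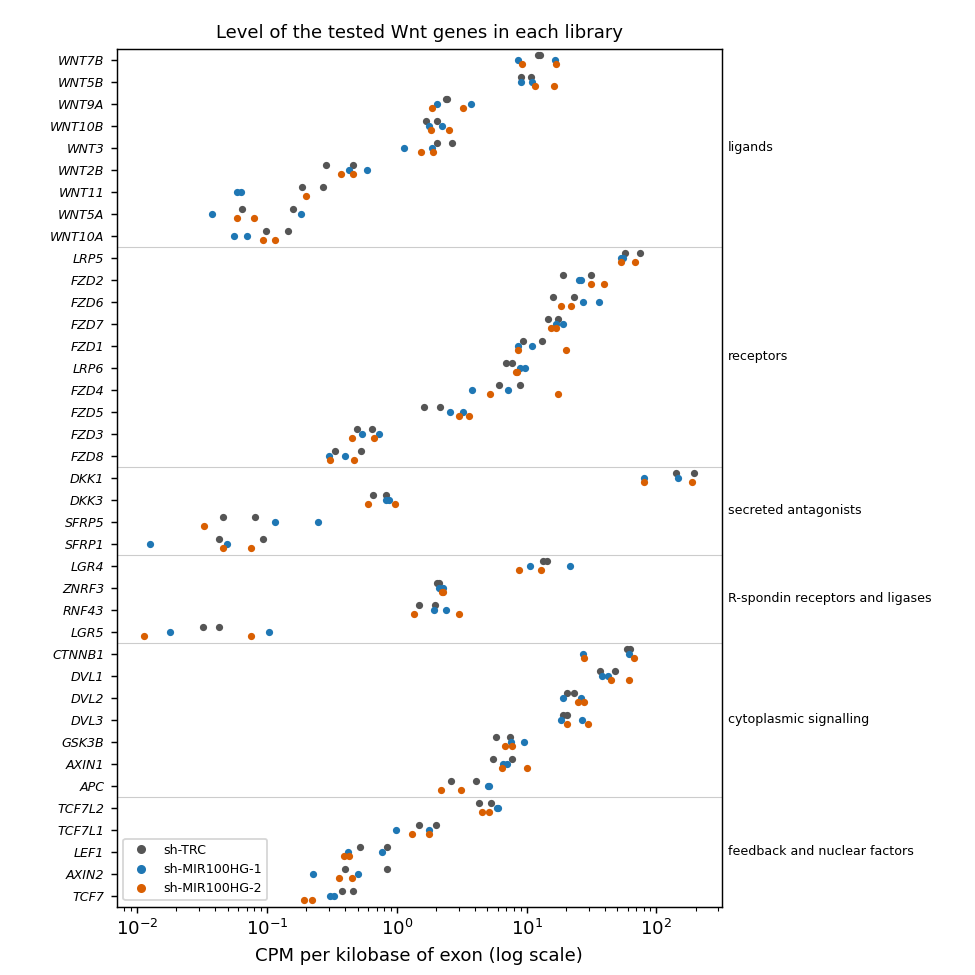
Level of the 39 tested Wnt genes, one row per gene grouped by role, as CPM per kilobase of exon on a log axis, with one point per library coloured by group. DKK1, LRP5 and CTNNB1 lie furthest right and 7 of the 9 tested ligands below 4 CPM per kilobase. WNT11 and SFRP5 had 0 counts in the first sh-MIR100HG-2 library and show 5 points.

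No Wnt gene passed the test after knockdown of MIR100HG. FZD5, a Frizzled receptor, was higher and TCF7, a nuclear partner of β-catenin, was lower in all 4 knockdown libraries than in both controls, but neither passed the adjustment over all genes. At an adjusted p at or below 0.05, edgeR's quasi-likelihood test called 0 of the 39 genes for the mean of both shRNAs, for either shRNA alone, and between the shRNAs; the background over all 15372 genes tested was 0% in each. DESeq2 also called 0 Wnt genes in each of these comparisons. At an unadjusted p under 0.05, 2 of 39 Wnt genes passed for the mean of both shRNAs (FZD5 higher, TCF7 lower), against a background of 7.68%. For sh-MIR100HG-1 the count was 1 (FZD6, higher; background 6.87%), and for sh-MIR100HG-2 it was 2 (FZD5 higher, TCF7 lower; background 8.86%). Between the shRNAs, 3 genes passed (APC, FZD6 and SFRP5, all lower with sh-MIR100HG-2), against 9.45% of all genes. These shares, 5.13%, 2.56%, 5.13% and 7.69%, were below that of all genes. But 1 gene of 39 makes 2.56%, so these gaps are of few genes and are not read as a result. Without the first sh-TRC library, 0 Wnt genes passed for the mean of both shRNAs and 0 for sh-MIR100HG-2. The comparisons with sh-TRC share the same control libraries.

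The 4 knockdown libraries all lay beyond both controls for 5 of 39 Wnt genes (12.8%), against 17.5% of all genes tested. FZD5, LRP6 and ZNRF3 were higher, where the background was 8.4%, and TCF7 and WNT3 were lower, where it was 9.08%. With 4 libraries against 2, the exact two-sided permutation test cannot give a p under 0.0667. This test gave a p of 0.0667 for FZD5, LRP6 and ZNRF3, and of 0.133 for TCF7 and WNT3. The median log2FC of the 39 genes was 0.09, with 24 above 0 and 15 below, beside a median of -0.04 over all genes. By role, the median log2FC was 0.04 for ligands, 0.08 for receptors, -0.30 for secreted antagonists, 0.21 for R-spondin receptors and ligases, 0.16 for cytoplasmic genes and -0.45 for feedback and nuclear factors. For 35 of 39 Wnt genes (89.7%), the libraries of at least 1 group differed from each other by more than the log2FC of the knockdown, as they did for 83.7% of all genes. The 95% interval of a Wnt gene's log2FC reached a median of 0.69 to either side of the estimate, from 0.40 (LRP6) to 2.15 (WNT11), before any adjustment for the number of genes.

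**Figure D2:**
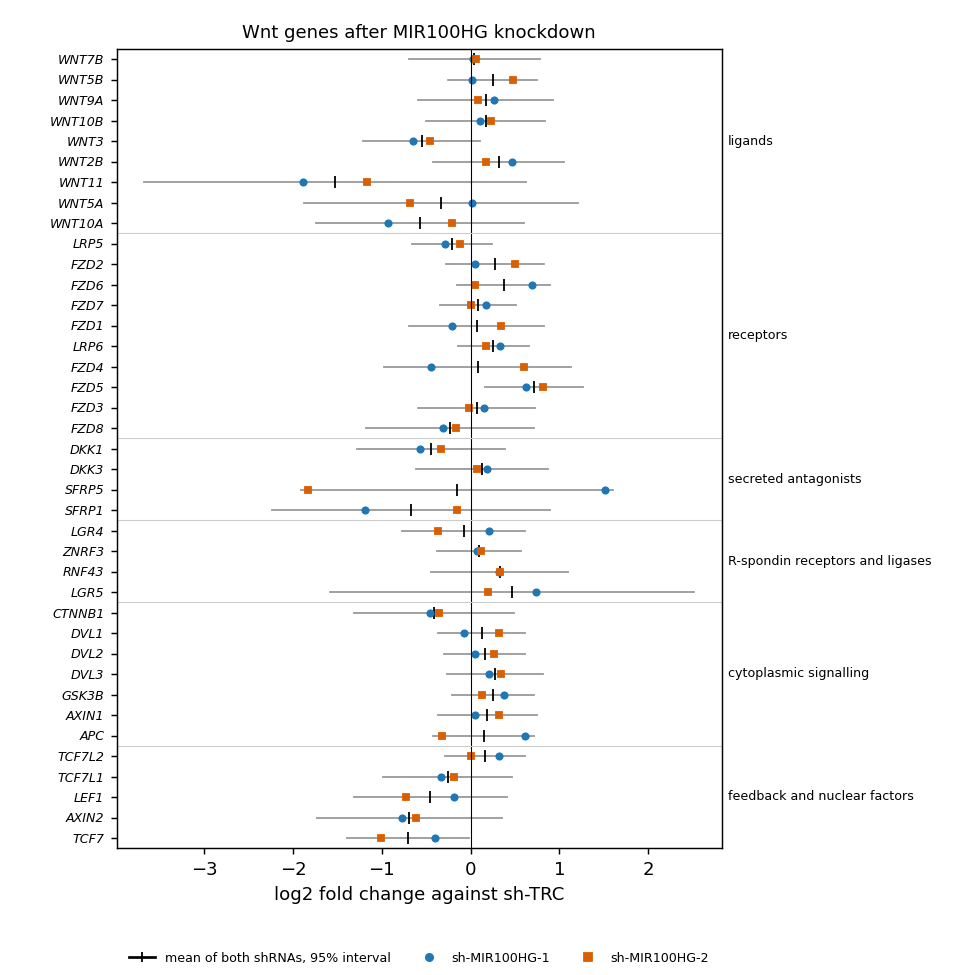
Log2 fold change of each tested Wnt gene against sh-TRC, one row per gene grouped by role. Black ticks with grey lines give the mean of both shRNAs and its 95% interval, blue circles sh-MIR100HG-1 and orange squares sh-MIR100HG-2. The interval excludes 0 for FZD5 (0.16 to 1.27) and TCF7 (-1.40 to -0.01), without adjustment for the number of genes.

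Among the receptors, FZD5 (ENSG00000163251.3_1, chromosome 2 of GRCh37, 208627310 to 208634287, minus strand) stood at 10.9 and 14.5 CPM with sh-TRC, 21.9 and 17.2 CPM with sh-MIR100HG-1, and 24.3 and 20.3 CPM with sh-MIR100HG-2. The groups did not overlap between control and knockdown, and the shRNAs gave like levels. Its log2FC was 0.72 (SE 0.24) for the mean of both shRNAs, 0.62 (SE 0.27) for sh-MIR100HG-1 and 0.81 (SE 0.27) for sh-MIR100HG-2, with an adjusted p of 0.562 for the mean in edgeR. Its exact permutation p of 0.0667 is the smallest this design can give. Leaving out 1 library at a time, the log2FC ranged from 0.53 without the first control to 0.93 without the second, and it was 0.84 (unadjusted p 0.066) without the 2 libraries that stood apart.

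FZD6, a Frizzled receptor also linked to planar cell polarity, differed between the shRNAs. It was measured at 93.8 and 65.5 CPM with sh-TRC, 111 and 147 CPM with sh-MIR100HG-1, and 89.6 and 75.2 CPM with sh-MIR100HG-2. The sh-MIR100HG-1 libraries were above the other 4, and the sh-MIR100HG-2 libraries lay between the controls. The log2 difference of sh-MIR100HG-2 from sh-MIR100HG-1 was -0.65 (SE 0.26, unadjusted p 0.037, adjusted p 0.509 in edgeR), and -0.83 (unadjusted p 0.030) without the 2 libraries that stood apart.

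LRP5 (ENSG00000162337.11_1), the receptor gene with the highest level per kilobase, was at 353 and 463 CPM in sh-TRC, 338 and 330 CPM with sh-MIR100HG-1, and 327 and 421 CPM with sh-MIR100HG-2. Its log2FC was -0.21 (SE 0.20), and the control and knockdown libraries overlapped. Its partner LRP6 was at 80.4 and 72.3 CPM in sh-TRC and 85.9 to 99.9 CPM in the knockdown libraries, with no overlap and a log2FC of 0.26 (SE 0.18, adjusted p 0.771 in edgeR). FZD4 was the receptor whose libraries differed most within a group, at 130 and 38.4 CPM with sh-MIR100HG-2. Its exons, 7383 bases long, share 1399 bases with PRSS23 on the opposite strand, which stood at 1227 to 1975 CPM. Without a stated strand setting, reads of these genes cannot be told apart in the shared bases. The log2FC of FZD4 was 0.08 (SE 0.46) for the mean of both shRNAs and 0.60 (SE 0.53) for sh-MIR100HG-2. Its log2 difference of sh-MIR100HG-2 from sh-MIR100HG-1 was 1.04 (SE 0.53). The other tested receptors, FZD1, FZD2, FZD3, FZD7 and FZD8, had log2FC values between -0.24 and 0.27. Without the 2 libraries that stood apart, the log2FC of FZD2 was 0.69 for the mean of both shRNAs and 0.90 for sh-MIR100HG-2. FZD9 and ROR2 had at most 6 counts in a library.

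Among the ligands, WNT3, a ligand of the β-catenin branch, was at 8.82 and 11.6 CPM with sh-TRC, 8.09 and 4.96 CPM with sh-MIR100HG-1, and 8.22 and 6.65 CPM with sh-MIR100HG-2. All 4 knockdown libraries were below both controls, the nearest by less than 1 CPM. The log2FC was -0.55 (SE 0.29, unadjusted p 0.091, adjusted p 0.692 in edgeR). WNT7B, the ligand with the highest level per kilobase, was at 61.8 and 63.8 CPM in sh-TRC, 43.4 and 84.2 CPM with sh-MIR100HG-1, and 46.2 and 85.1 CPM with sh-MIR100HG-2. The first library of each shRNA lay below the controls and the second above them, so that the log2FC was 0.04 (SE 0.32). Leaving out the second library of each shRNA, an alternative chosen after seeing the data, turned it to -0.49 (unadjusted p 0.068, adjusted p 0.796 in edgeR). WNT9A had the same order, at 9.53 and 9.70 CPM in sh-TRC, 8.16 and 14.9 CPM with sh-MIR100HG-1, and 7.43 and 12.9 CPM with sh-MIR100HG-2.

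WNT5B, a ligand usually placed outside the β-catenin branch, was at 38.9 and 46.7 CPM with sh-TRC, 39.0 and 47.7 CPM with sh-MIR100HG-1, and 49.9 and 69.7 CPM with sh-MIR100HG-2. Both sh-MIR100HG-2 libraries lay above both controls, as did the second sh-MIR100HG-1 library by less than 1 CPM. The log2FC was 0.48 for sh-MIR100HG-2 (SE 0.25, unadjusted p 0.091, adjusted p 0.612 in edgeR) and 0.02 for sh-MIR100HG-1. WNT10B and WNT2B had log2FC values of 0.17 and 0.32 for the mean of both shRNAs. WNT2B shares 2661 exonic bases with ST7L on the opposite strand, so its reads in these bases are uncertain. The remaining tested ligands, WNT5A, WNT10A and WNT11, were at 1.39 CPM or less in every library.

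In 4 weakly expressed genes, named here for this order, the 2 libraries that stood apart were highest. The share of all genes with this order was not counted, so it is not read as a result about Wnt genes. WNT6 had 56 counts in the second sh-TRC library, 60 in the first sh-MIR100HG-1 library and 0 in the other 4. WNT1 had 9 and 40 counts with sh-TRC, 36 and 2 with sh-MIR100HG-1, and 0 and 2 with sh-MIR100HG-2. In WNT5A the counts were 26 and 70, 92 and 12, and 20 and 30 in the same order. AXIN2, a feedback inhibitor and common readout of β-catenin activity, had 112 and 260, 174 and 50, and 108 and 94 counts. In counts, all 4 genes were highest in the second sh-TRC library and the first sh-MIR100HG-1 library, which are also those with the most counts in total. In CPM they were highest too, but AXIN2 in the first sh-MIR100HG-1 library, at 2.62 CPM, was close to the 2.38 CPM of the first sh-MIR100HG-2 library. The low-count limit kept WNT6 and WNT1 out of the test. With no limit (21349 genes), edgeR called WNT6 for the mean of both shRNAs (log2FC -3.87, adjusted p 0.00863), and called WNT6 and WNT1 for sh-MIR100HG-2, where 1.84% and 2.42% of all genes were called. Each of these calls compares groups of which 1 or both hold a library that stood apart, and the part of that in the calls was not tested. Leaving out the 2 libraries, an alternative chosen after seeing the data, left 0 Wnt genes at an adjusted p at or below 0.05 in all 4 comparisons, and 0, 0, 2 and 4 at an unadjusted p under 0.05 for the mean of both shRNAs, sh-MIR100HG-1, sh-MIR100HG-2 and between the shRNAs.

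**Figure D3:**
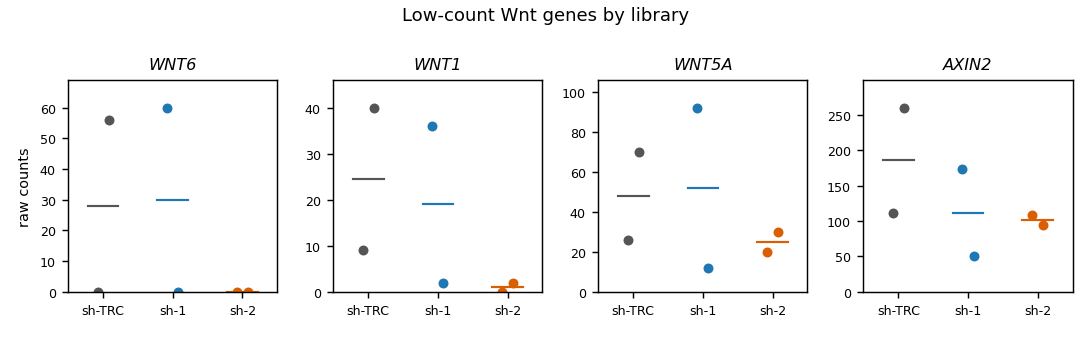
Raw counts of WNT6, WNT1, WNT5A and AXIN2 in each library, with a line at the group mean (n = 2 libraries); the first library of a group is drawn left of the second. The right sh-TRC point and the left sh-MIR100HG-1 point are the 2 highest in each panel, for example 56 and 60 counts of WNT6 where the other 4 libraries had 0.

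Among the secreted antagonists, DKK1 (ENSG00000107984.9_1, chromosome 10 of GRCh37, 54074056 to 54077802, plus strand) was at 312 and 430 CPM with sh-TRC, 176 and 326 CPM with sh-MIR100HG-1, and 176 and 413 CPM with sh-MIR100HG-2. The first library of each shRNA was below both controls, and the second lay between them. The log2FC was -0.45 (SE 0.36, adjusted p 0.817 in edgeR), -1.09 (adjusted p 0.165) without the second library of each shRNA, and -0.01 without the 2 libraries that stood apart. The estimate therefore depended on which libraries entered it.

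DKK1 is a known target of β-catenin and TCF factors. Of the sites that these factors can bind, only CTTTGAA and CTTTGAT were searched for, in either orientation, and other forms were not marked. In the RefSeq promoter windows (GRCh38.p14, 250 bases before to 50 after a start site), read on both strands, CTTTGAA was found in 1555 of 35116 windows (4.43%) and CTTTGAT in 919 (2.62%). Windows were given for 41 of the Wnt genes, 49 windows in all, and DKK1 alone among them held CTTTGAA, 95 bases before the start site, while none held CTTTGAT. Its window is shown as the promoter of the Wnt gene with the highest level, with that motif in capitals.
DKK1, chr10:52314031-52314330, plus strand: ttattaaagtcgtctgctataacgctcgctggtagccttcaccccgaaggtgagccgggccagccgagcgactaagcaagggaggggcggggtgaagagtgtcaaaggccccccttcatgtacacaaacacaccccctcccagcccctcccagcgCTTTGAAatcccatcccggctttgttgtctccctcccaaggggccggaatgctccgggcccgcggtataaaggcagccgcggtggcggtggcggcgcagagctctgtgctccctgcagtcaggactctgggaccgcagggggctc

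The other antagonists were far lower. DKK3 ranged from 3.02 to 4.89 CPM over the 6 libraries, with a log2FC of 0.13 (SE 0.33). SFRP5, which binds Wnt ligands, had 8 and 5 counts with sh-TRC, 30 and 9 with sh-MIR100HG-1, and 0 and 3 with sh-MIR100HG-2. Its sh-MIR100HG-1 libraries were above and its sh-MIR100HG-2 libraries below both controls in CPM, with a log2 difference of -3.35 (SE 1.07, unadjusted p 0.014, adjusted p 0.509 in edgeR) between the shRNAs. Without the 2 libraries that stood apart, this difference was -2.68 (SE 1.53) and its unadjusted p was 0.102. SFRP1 was at 0.060 to 0.447 CPM, and DKK2, DKK4 and SFRP2 had at most 12 counts in a library.

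Of the R-spondin receptors and ligases, LGR4, a receptor for R-spondins, was at 91.2 and 85.6 CPM with sh-TRC, 66.9 and 138 CPM with sh-MIR100HG-1, and 55.0 and 82.5 CPM with sh-MIR100HG-2. The sh-MIR100HG-1 libraries lay on either side of the controls and both sh-MIR100HG-2 libraries below them. The log2FC was -0.08 (SE 0.30). ZNRF3, a ligase that removes Frizzled, was at 14.3 and 14.6 CPM in sh-TRC and 14.6 to 15.8 CPM in the knockdown libraries. The nearest control and knockdown libraries were both at 14.6 CPM, and the log2FC was 0.10 (SE 0.21, 95% interval -0.38 to 0.57). The related ligase RNF43 was at 11.1 and 14.9 CPM in sh-TRC and 10.2 to 22.6 CPM after knockdown, and shares 143 exonic bases with SUPT4H1. The log2FC of RNF43 was 0.33 (SE 0.34), and 0.63 without the 2 libraries that stood apart. LGR5 was at 0.542 CPM or less, and its log2FC turned from 0.47 (SE 0.89) to -0.60 without these 2 libraries.

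Of the cytoplasmic signalling genes, CTNNB1 (ENSG00000168036.16_2, chromosome 3 of GRCh37, 41236328 to 41301587, plus strand), which encodes β-catenin, was at 390 and 416 CPM with sh-TRC, 406 and 179 CPM with sh-MIR100HG-1, and 447 and 183 CPM with sh-MIR100HG-2. The second library of each shRNA was at less than 0.5 times the level of the first, while the first libraries were at or above the level of the first control. The log2FC was -0.41 (SE 0.39, adjusted p 0.847 in edgeR). It was 0.07 without the second library of each shRNA, and -0.72 without the 2 libraries that stood apart. The libraries of 1 group thus differed by 2.26-fold and 2.44-fold after knockdown, and by 1.07-fold in the control.

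APC, the scaffold of the β-catenin destruction complex, was at 50.5 and 32.4 CPM with sh-TRC, 62.5 and 64.3 CPM with sh-MIR100HG-1, and 39.2 and 27.3 CPM with sh-MIR100HG-2. The sh-MIR100HG-1 libraries were above the other 4. The log2 difference of sh-MIR100HG-2 from sh-MIR100HG-1 was -0.93 (SE 0.29, unadjusted p 0.011, adjusted p 0.509 in edgeR), and -0.95 (unadjusted p 0.025) without the 2 libraries that stood apart. With no low-count limit, the adjusted p of this difference was 0.0498, with 3 Wnt genes (WNT6, APC and FZD4) and 3.18% of all genes called between the shRNAs. Against sh-TRC the log2FC of APC was 0.61 (SE 0.29) for sh-MIR100HG-1 and -0.32 (SE 0.29) for sh-MIR100HG-2. APC shares 230 exonic bases with an unnamed gene on the same strand. For the other 5, log2FC values of the mean of both shRNAs were 0.12 for DVL1, 0.16 for DVL2, 0.27 for DVL3, 0.25 for GSK3B and 0.19 for AXIN1, each less than 1.3 times its SE. How reads that match several paralogs were counted is not given in the sources used here, which leaves the split between the Dishevelled genes, or between the Frizzled genes, uncertain.

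Of the feedback and nuclear factors, TCF7 (ENSG00000081059.19_2, chromosome 5 of GRCh37, 133450402 to 133487556, plus strand) was at 4.62 and 3.82 CPM with sh-TRC, 3.10 and 3.28 CPM with sh-MIR100HG-1, and 1.94 and 2.26 CPM with sh-MIR100HG-2. The 3 groups did not overlap, the libraries of each lay within 1.21-fold of each other, and the exact permutation p of TCF7 was 0.133. Its log2FC was -0.70 (SE 0.30, adjusted p 0.645) for the mean of both shRNAs, -0.40 (SE 0.36) for sh-MIR100HG-1 and -1.01 (SE 0.36, adjusted p 0.526) for sh-MIR100HG-2 in edgeR. The difference between the shRNAs, -0.60 (SE 0.36), had an unadjusted p of 0.131. Without the 2 libraries that stood apart, the log2FC of the mean of both shRNAs was -0.81 (unadjusted p 0.155). Its exons share 210 bases with SKP1 on the opposite strand, which was at 162 to 217 CPM, so reads of SKP1 could be counted for it. TCF7L2, the member of the family with the highest level per kilobase, was at 35.9 and 28.8 CPM with sh-TRC, 40.1 and 40.6 CPM with sh-MIR100HG-1, and 30.3 and 34.5 CPM with sh-MIR100HG-2. Its log2FC was 0.16 (SE 0.20), and only the sh-MIR100HG-1 libraries were above both controls. LEF1 and TCF7L1 had log2FC values of -0.45 (SE 0.38) and -0.26 (SE 0.32), and for AXIN2 it was -0.69 (SE 0.45). Without the 2 libraries that stood apart, the log2FC was -1.01 (SE 0.54) for LEF1 and -0.39 (SE 0.61) for AXIN2. AXIN2 shares 1316 exonic bases with an unnamed gene on the same strand. NKD1 and NKD2, feedback inhibitors that bind Dishevelled, had at most 4 counts in a library.

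**Figure D4:**
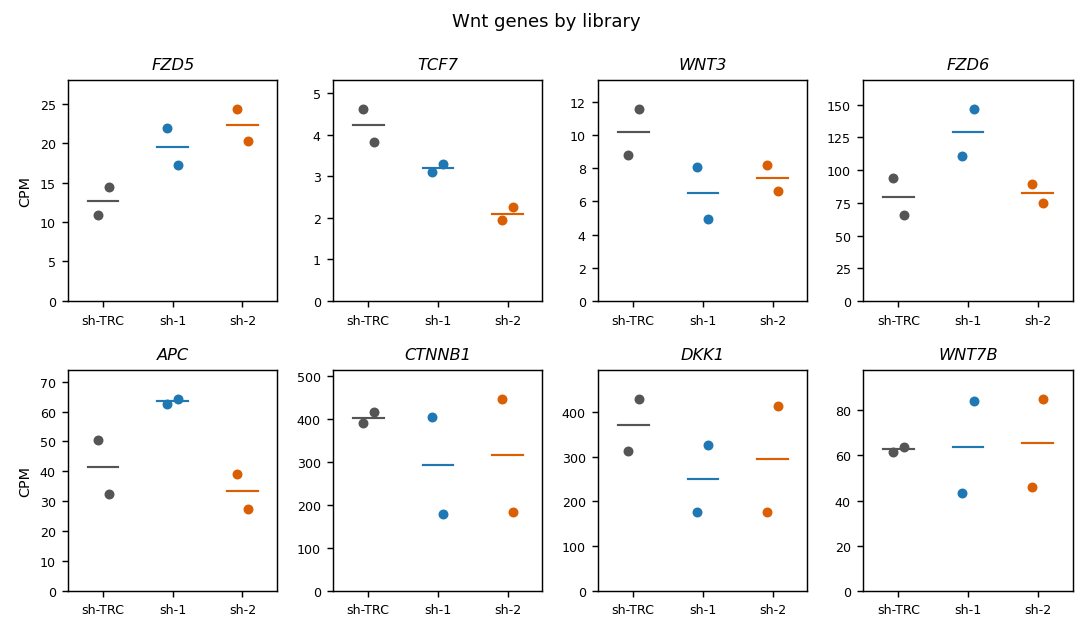
CPM of 8 Wnt genes in each library (sh-1 is sh-MIR100HG-1 and sh-2 is sh-MIR100HG-2), with a line at the group mean (n = 2 libraries) and the first library drawn left of the second; each vertical axis starts at 0. FZD5, TCF7 and WNT3 show no overlap between control and knockdown, APC and FZD6 stand highest with sh-MIR100HG-1, and CTNNB1, DKK1 and WNT7B split by library within each shRNA.

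The genes around these were read from 5 further lists, chosen with earlier results of these data known, so their shares are descriptions, not tests. In edgeR 0 of their tested genes passed an adjusted p of 0.05 in each of the 4 comparisons, where the background was 0%. Among genes of Wnt secretion, co-receptors and secreted regulators, 16 of 27 were tested, and 5 of the 16 (31.25%) had an unadjusted p under 0.05 after knockdown, all lower, against 7.68% of all genes. In this list 8 of 16 genes had all knockdown libraries beyond both controls, against 17.5%, and the median log2FC was -0.22 beside -0.04 for all genes. PORCN, the acyltransferase that lipid-modifies Wnt ligands, was at 34.9 and 39.5 CPM with sh-TRC, 20.2 and 24.2 CPM with sh-MIR100HG-1, and 22.3 and 28.1 CPM with sh-MIR100HG-2 (log2FC -0.65, SE 0.20, adjusted p 0.538 in edgeR). The Dickkopf receptors KREMEN1 and KREMEN2 had log2FC values of -1.09 (SE 0.39) and -1.58 (SE 0.47), the latter at 1.08 and 1.61 CPM in sh-TRC and 0.260 to 0.768 CPM after knockdown. PTK7, a co-receptor of planar cell polarity, was at 68.3 and 66.4 CPM with sh-TRC, 49.2 and 33.1 CPM with sh-MIR100HG-1, and 45.1 and 25.5 CPM with sh-MIR100HG-2 (log2FC -0.82, SE 0.27, adjusted p 0.554 in edgeR). The fifth, LGR6, named after its values were seen, was below 1 CPM in all libraries (log2FC -1.35, SE 0.54). In all 5 genes the knockdown libraries were below both controls. For LGR6 this was a near tie, with the second sh-MIR100HG-2 library and the first control both at 0.54 CPM.

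**Figure D5:**
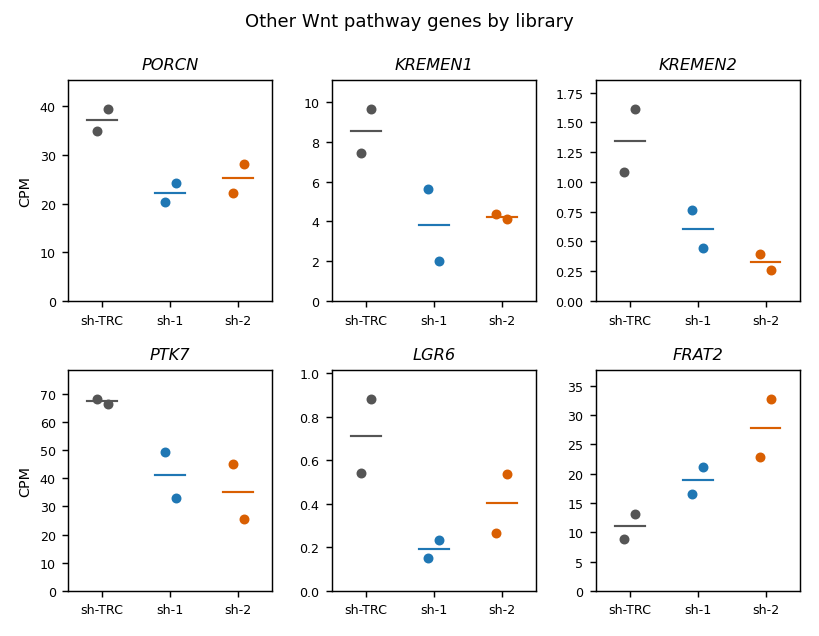
CPM of 6 other genes of the Wnt pathway in each library, with a line at the group mean (n = 2 libraries) and vertical axes that start at 0. PORCN, KREMEN1, KREMEN2, PTK7 and LGR6 lie lower, and FRAT2 higher, in all 4 knockdown libraries than in both controls. For LGR6, the second sh-MIR100HG-2 library and the first control both stand at 0.54 CPM.

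In the other lists 4.17%, 10%, 13.3% and 8% of the tested genes, in the order given here, had an unadjusted p under 0.05, against 7.68% of all genes. All knockdown libraries lay beyond both controls for 20.8%, 35%, 30% and 20% of them, against 17.5%. In the β-catenin destruction complex and its regulators, 1 of 24 tested genes passed: FRAT2, which binds GSK3B and keeps it from β-catenin. It was at 8.88 and 13.2 CPM in sh-TRC, 16.5 and 21.1 CPM with sh-MIR100HG-1, and 22.8 and 32.8 CPM with sh-MIR100HG-2, with a log2FC of 1.05 (SE 0.28, adjusted p 0.476 in edgeR). Of 20 tested nuclear partners of β-catenin, SMARCA4, a chromatin remodelling ATPase, was higher (log2FC 0.53, SE 0.20) and TLE2, a co-repressor of TCF factors, was lower (log2FC -1.78, SE 0.72). TLE2 was weakly expressed, at 0.56 and 0.99 CPM with sh-TRC and 0.04 to 0.40 CPM after knockdown. Of 30 tested genes of the planar cell polarity and calcium branch, 1 was higher (DAAM1, log2FC 0.71) and 3 were lower (NFATC1, -1.14, VANGL2, -1.71, and CELSR2, -0.57). VANGL2 was at 0.410 and 0.425 CPM with sh-TRC, 0.030 and 0.047 CPM with sh-MIR100HG-1, and 0.265 and 0.559 CPM with sh-MIR100HG-2, so the sh-MIR100HG-2 libraries lay on either side of the controls. Of 25 tested target genes of β-catenin outside the Wnt genes, 2 were lower: L1CAM (log2FC -0.82, SE 0.23) and BMP4 (log2FC -0.61, SE 0.20). The median log2FC of these 4 lists lay between 0.03 and 0.14.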

How the data were processed

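RNA-seq counts of 6 samples were used: sh-TRC, sh-MIR100HG-1 and sh-MIR100HG-2, with 2 samples each, which a figure legend of the study calls biological replicates for the shRNAs. The authors deposited raw counts per gene without normalization, after mapping to GRCh37 with STAR (version 2.5.2a in the submitters' processing notes) and summing exonic reads per gene by FeatureCounts. The handling of strand and of multi-mapping reads is not given in the sources used here. Of counts between 1 and 20, 68.4% were even. Symbols were matched for 26966 of 27745 genes.

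A gene was removed when 3 or more of the 6 samples had under 5 counts, which left 15372, tested in 1 model of 3 groups with the quasi-likelihood test of edgeR 4.0.16 (R 4.3.3, TMM normalization, 3 residual degrees of freedom, prior 5.37, biological coefficient of variation 27.8%), whose script was checked on simulated counts with a smaller spread than these. Benjamini-Hochberg adjustment covered all of these genes. CPM were computed from TMM-scaled sizes of the tested genes. The exact permutation test was two-sided over all 15 choices of 2 controls. Intervals cover the spread between samples.

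The Wnt genes, the 5 pathway lists and the 3 marker lists were chosen with earlier results of these data known. Named in full were Wnt genes at an unadjusted p under 0.05 in any comparison, those with all 4 knockdown samples beyond both controls and a log2FC above 0.5 or below -0.5, and the gene with the highest CPM per kilobase in each role, 12 in all; of the other lists, at most 4 genes by smallest p. Others are named to account for each role. Alternatives were DESeq2 1.42.0, the likelihood ratio test, another form of the quasi-likelihood fit, other size factors, other low-count limits, a replicate block and left-out libraries. Replicate numbers were not taken to pair the samples.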

Additional observations from a re-analysis of the deposited data

Results flagged for a closer look

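SFRP5 was singled out because both sh-MIR100HG-1 libraries lay above both sh-TRC libraries and both sh-MIR100HG-2 libraries below them, in CPM. The log2 difference of sh-MIR100HG-2 from sh-MIR100HG-1 was -3.35 (SE 1.07, unadjusted p 0.014, adjusted p 0.509 in edgeR's quasi-likelihood test), on counts of 8 and 5, 30 and 9, and 0 and 3 in the 3 groups. Without the second sh-TRC library and the first sh-MIR100HG-1 library, the difference was -2.68, with an unadjusted p of 0.102 in edgeR.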

How the results depend on the processing

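At an adjusted p at or below 0.05, the counts of Wnt genes stayed at 0 under every alternative except with no low-count limit, which gave 1 for the mean of both shRNAs, 2 for sh-MIR100HG-2 and 3 between the shRNAs. Counts at an unadjusted p under 0.05 moved more. For the mean of both shRNAs (2), they were 1 by the likelihood ratio test, 1 with relative log expression size factors, 6 with no limit, 5 without the second library of each shRNA, 0 without the second control and the first sh-MIR100HG-1 library, and 0 (without sh-TRC replicate 1) to 3 leaving out 1 library. For sh-MIR100HG-1 (1), they were 2 by DESeq2, 2 with those size factors, 5 with no limit, 3 without the second library of each shRNA, 0 without the second control and the first sh-MIR100HG-1 library, and 0 (without its replicate 2) to 3 (without its replicate 1 or either sh-MIR100HG-2 replicate) leaving out 1 library. For sh-MIR100HG-2 (2), they were 5 with no limit, 7 without the second libraries, and 0 (without sh-TRC replicate 1) to 6 (without its own replicate 2). Between the shRNAs (3), the count was 9 with no limit and 2 to 4 leaving out 1 library.

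Deviations of same-numbered libraries correlated at -0.213 between sh-TRC and sh-MIR100HG-1, 0.0219 between sh-TRC and sh-MIR100HG-2, and 0.497 between the shRNAs, so the numbers were not taken to pair the samples of all groups. With a replicate block the unadjusted counts were 2, 3, 3 and 3 in the order above, and the adjusted counts 0. For the mean of both shRNAs, the 2 genes were then FZD5 and DKK1 (log2FC -0.54, unadjusted p 0.022 in edgeR), and TCF7 no longer passed. With no low-count limit DKK1 also passed for this mean (unadjusted p 0.042 in edgeR), and TCF7 did not. Of 224 values of the 12 named genes, 214 kept direction and side of the threshold. APC between the shRNAs passed at -0.91 with no limit. The log2FC turned for CTNNB1 (0.072) and WNT7B (-0.49) without the second library of each shRNA, for WNT7B with the replicate block (-0.049), for LGR4 without the second control and the first sh-MIR100HG-1 library (0.093), and, leaving out 1 library, for LGR4 (range -0.38 to 0.14), LRP5 (-0.39 to 0.0029) and WNT7B (-0.23 to 0.24). The cause was not tested. The median log2FC after knockdown ranged from -0.02 to 0.11. With 2 libraries a group and adjustment over all genes, even the difference of MIR100HG was not called.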
